A study of Homo sapiens with 16 samples.

Results

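DHRS2 and KIF21B were measured by 3 of the 6442 probe sets that the array annotation assigns to a single gene, out of 9554 probe sets in all. DHRS2 had 2 probe sets, 214079_at and 206463_s_at, and KIF21B had 1, 204411_at, so the pair makes up 2 of the 5250 genes analysed. Both genes were chosen on their measured values, because their intensities were much higher in cells treated with ICG-001 than in cells given its vehicle and were not higher after CTNNB1 siRNA. No numerical limit was part of that choice. The differences between ICG-001 and DMSO and between CTNNB1 siRNA and control siRNA are therefore described here without a test. The change over time in vehicle alone was not used to choose the genes, although it shares the DMSO arrays with the drug comparisons, and it was tested.

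The cells were AsPC-1, a human pancreatic ductal adenocarcinoma line, in RPMI medium with 10% FCS, profiled on 16 Affymetrix arrays. In the drug experiment, 3 arrays each came from cells given 10 µM ICG-001 for 6 h, 10 µM ICG-001 for 24 h, the DMSO vehicle for 24 h and the DMSO vehicle for 6 h. In a separate experiment, 2 arrays each came from cells transfected with 20 nM CTNNB1 siRNA or 20 nM control siRNA with Lipofectamine 2000 and harvested at 48 h. ICG-001 is a small molecule that binds the coactivator CBP and was described as blocking its contact with β-catenin, the protein encoded by CTNNB1, so the design sets a drug aimed at a β-catenin partner beside depletion of β-catenin itself.

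KIF21B is a motor of the kinesin-4 family that walks towards the growing ends of microtubules and restrains their growth. It is best known from neurons and from lymphocytes, where it takes part in transport and in limiting microtubule length. DHRS2, also called HEP27, is an enzyme of the short-chain dehydrogenase/reductase family that reduces dicarbonyl compounds. In human cancer cells it has been described as binding the ubiquitin ligase MDM2, as a gene activated by the transcription factor MYB, and as a gene whose RNA rises with histone deacetylase inhibitors.

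The stretch of 250 bases before the annotated start of DHRS2 is shown to give the sequence context of the gene. The sequence is RefSeq's for GRCh38.p14, at chr14:23629865-23630114 on the plus strand, printed 5′ to 3′ with a TATA box in capitals.
DHRS2 promoter: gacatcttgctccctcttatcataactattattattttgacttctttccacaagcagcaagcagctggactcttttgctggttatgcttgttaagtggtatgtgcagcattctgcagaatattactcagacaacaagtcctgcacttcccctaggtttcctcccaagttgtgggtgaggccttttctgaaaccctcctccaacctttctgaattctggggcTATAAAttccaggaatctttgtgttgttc
The TATA box, searched as TATAAA on both strands, began 29 bases before the start, and 10.7% of 35116 RefSeq promoters held this motif in a window of the same length. The window had a GC content of 43.2%, against a median of 58.0% over those promoters, and 0 CpG dinucleotides, against a median of 11. Only 6.1% of the promoters had as few CpG. The other motifs searched on both strands had no match in these bases: the MYB core AACNG (in 70.6% of promoters), the GC box GGGCGG (42.6%), CCAAT (32%), the E-box CACGTG (6.34%), the AP-1 element TGACTCA (4.2%), the ATF4 and C/EBP composite TGATGNAA (3.14%), the TCF/LEF core CTTTGAT (2.26%) and the cAMP response element TGACGTCA (1.65%). The GC box, the E-box and the cAMP response element each contain CG in the letters searched, so a window with 0 CpG cannot hold these forms. Other forms of these motifs, such as E-boxes without CG, were not searched. These are matches of letters and not measured binding, and no other motif overlapped the TATA box.

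Deposited intensities are on a linear scale, and a level is comparable between arrays for 1 probe set but not between probe sets. Changes are differences of log2(intensity + 16) after quantile normalization over the 16 arrays, given with their standard error (SE). The model for all 5250 genes found 724 genes past an adjusted p of 0.05 for ICG-001 against DMSO at 6 h (13.8%), 1076 at 24 h (20.5%), 631 for CTNNB1 siRNA against control siRNA (12%) and 453 for DMSO at 24 h against 6 h (8.63%), by limma with Benjamini-Hochberg adjustment. Of the called genes, 40.3% were higher with ICG-001 at 6 h and 45% at 24 h, whereas without normalization between arrays these shares were 62.5% and 65.8%. The median change of all genes was -0.02 at both times. CTNNB1 itself had no probe set of its own in the values analysed here, so the knockdown was not checked on its target. Of the epithelial markers of pancreatic ducts, 4 of 10 were measured (KRT7, KRT19, CDH1 and MUC1), and their summed intensity was 2444.6 to 3339.5 on the drug arrays and 399.7 to 551.6 on the siRNA arrays. In control siRNA cells KRT7 averaged 92.2, KRT19 11.8, CDH1 10.5 and MUC1 308. With DMSO at 6 h they averaged 1460, 85.2, 290 and 966. The source of this gap between the experiments was not tested. The 2 of 10 leukocyte markers measured summed to 7 to 38.9 over the 16 arrays, and the 5 of 10 fibroblast markers to 160.3 to 449.3.

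KIF21B was already near its highest level after 6 h of ICG-001. Its intensity was 388.5, 393.27 and 368.33 with ICG-001 at 6 h, against 45.12, 62.85 and 57.52 with DMSO at 6 h. The lowest ICG-001 array was several times the highest DMSO array, and the groups did not overlap. Of all genes, 15% had every ICG-001 array above every DMSO array at 6 h, which is read here only as background, since this difference chose the gene. Mean intensity was 383 ± 13.2 with ICG-001 and 55.2 ± 9.1 with DMSO (SD, n = 3 each), a ratio of 6.95. The fitted change was 2.53 ± 0.15 (log2, SE), the 6th highest among the 5250 genes.

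At 24 h the gap in KIF21B between drug and vehicle was about as wide. The arrays read 527.06, 532.53 and 494.95 with ICG-001, against 57.12, 72.68 and 72.72 with DMSO. Every ICG-001 array was several times every DMSO array. The share of all genes whose groups did not overlap upwards at 24 h, by any margin, was 21%. The means were 518 ± 20.3 with ICG-001 and 67.5 ± 9 with DMSO (SD, n = 3 each), a ratio of 7.68, and the fitted change was 2.66 ± 0.15, the 4th highest. Between drug-treated cells alone, KIF21B was 1.35 times higher at 24 h than at 6 h in mean intensity, with a fitted difference of 0.31 ± 0.15 and no overlap of the 2 sets of 3 arrays, as in 19.1% of all genes. The drug effect at 24 h minus that at 6 h was 0.13 ± 0.21, smaller than its own SE, and 7.81% of all genes passed the test of that difference. The arrays hold RNA of whole cultures, so more KIF21B RNA per cell and more cells that contain it cannot be told apart.

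KIF21B did not follow the drug's direction when CTNNB1 was targeted. Its intensity was 9.51 and 16.75 with CTNNB1 siRNA, against 21.33 and 32.51 with control siRNA. Both CTNNB1 siRNA arrays were below both control arrays, as in 20.4% of all genes in the downward direction. The means were 13.1 ± 5.12 with CTNNB1 siRNA and 26.9 ± 7.91 with control siRNA (SD, n = 2 each), a ratio of 0.488. The fitted change was -0.84 ± 0.18. The size of this change moved with the scale, and several of these intensities lie near the number 16 that was added. It was -0.56 on the deposited scaling, -1.26 when 1 was added instead and -0.42 when 64 was added.

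No other kinesin measured rose with ICG-001 at either time. Of 43 listed kinesin genes besides KIF21B, 8 were measured, and 0 passed the test in either direction at 6 h (0 of 8 also on the deposited scaling; 13.8% of all genes passed), with a median change of -0.10. At 24 h 0 rose and 1 fell, against 9.22% and 11.3% of all genes, with a median of -0.12 (0.10 on the deposited scaling). With 8 genes measured, counts of 0 or 1 are close to the background shares. The gene that fell was KIF9, a kinesin of motile cilia and flagella, with a change of -1.19 ± 0.17 (limma, adjusted p = 1.91e-05). After CTNNB1 siRNA 1 rose and 0 fell, against 6.19% and 5.83% of all genes. It was KIFC3, a minus-end-directed kinesin, with 0.72 ± 0.14 (adjusted p = 0.00155), a call that ended when its probe sets were averaged (0.28, adjusted p = 0.156) or when the siRNA arrays were fitted alone (adjusted p = 0.308). KIF21A, the closest relative of KIF21B, was not among the genes measured.

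**Figure D1:**
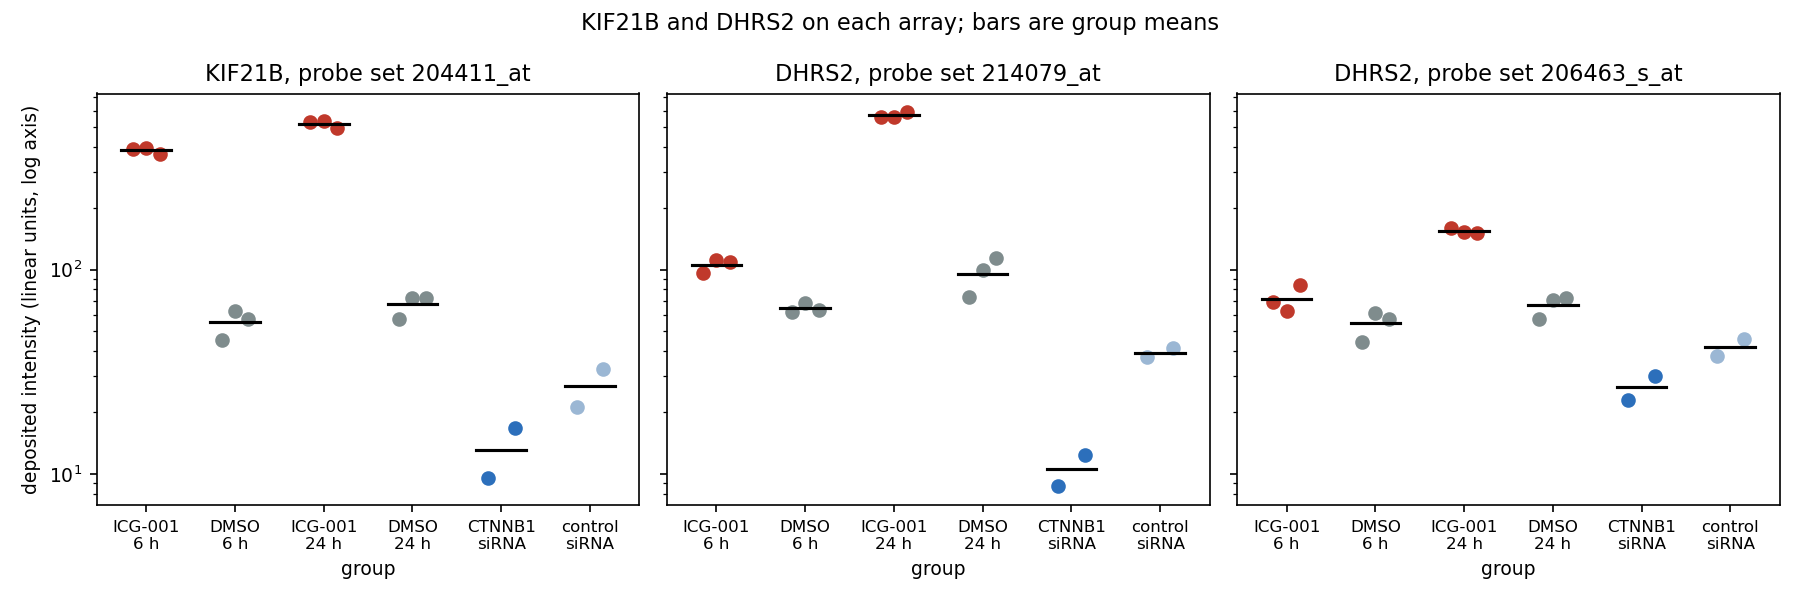
Deposited intensity (log axis) of KIF21B (204411_at) and of the 2 DHRS2 probe sets on every array, by group, with points for arrays and bars for group means. KIF21B is high with ICG-001 at both times, with all 6 arrays between 368.33 and 532.53, whereas DHRS2 214079_at reaches 555.88 to 588.90 only in the ICG-001 arrays of 24 h among the groups measured.

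DHRS2 responded later than KIF21B. On its brighter probe set, 214079_at, the intensity was 95.99, 111.59 and 108.37 with ICG-001 at 6 h, against 62.11, 68.38 and 63.3 with DMSO at 6 h. The groups did not overlap, as in 15% of all genes in the upward direction, and the gap was modest. The means were 105 ± 8.24 with ICG-001 and 64.6 ± 3.33 with DMSO (SD, n = 3 each), a ratio of 1.63, and the fitted change of 0.55 ± 0.13 placed the gene 213th from the top.

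At 24 h the same probe set read 555.88, 559.92 and 588.9 with ICG-001, against 73.3, 99.16 and 113.91 with DMSO. Every ICG-001 array was several times every DMSO array. The groups of 21% of all genes did not overlap upwards at 24 h, by any margin. The means were 568 ± 18 with ICG-001 and 95.5 ± 20.6 with DMSO (SD, n = 3 each), a ratio of 5.95, and the fitted change was 2.37 ± 0.13, the 8th highest. In drug-treated cells the mean was 5.4 times higher at 24 h than at 6 h, a fitted difference of 2.23 ± 0.13, and the drug effect at 24 h exceeded that at 6 h by 1.82 ± 0.19. Both values were the second highest of all genes. These places moved with the scale. On the deposited scaling they were 2nd and 5th, with 1 added 3rd and 32nd, and with 64 added 1st and 4th. The drug change at 24 h was then 13th, 14th and 13th. On 206463_s_at the time difference was 119th and the difference of drug effects 134th.

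The second DHRS2 probe set, 206463_s_at, moved in the same directions with smaller changes. It read 69.43, 62.56 and 84.09 with ICG-001 at 6 h, against 44.4, 61.49 and 57.56 with DMSO at 6 h. At 24 h it read 159.14, 153.43 and 151 with ICG-001, against 57.11, 70.59 and 72.49 with DMSO. In deposited intensity neither pair of groups overlapped (background shares 15% at 6 h and 21% at 24 h), and the 24 h gap was the wider. After normalization the 6 h groups did overlap, with the lowest ICG-001 array at 6.101 (log2) and the highest DMSO array at 6.142. The fitted changes were 0.27 ± 0.14 at 6 h and 0.99 ± 0.14 at 24 h, and mean intensities were 1.32 and 2.32 times those with DMSO. The probe sets therefore disagreed on size, with 24 h ratios of 5.95 and 2.32, and agreed on direction and on the order of the time points. The mean of both probe sets gave 0.41 at 6 h and 1.68 at 24 h.

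**Figure D2:**
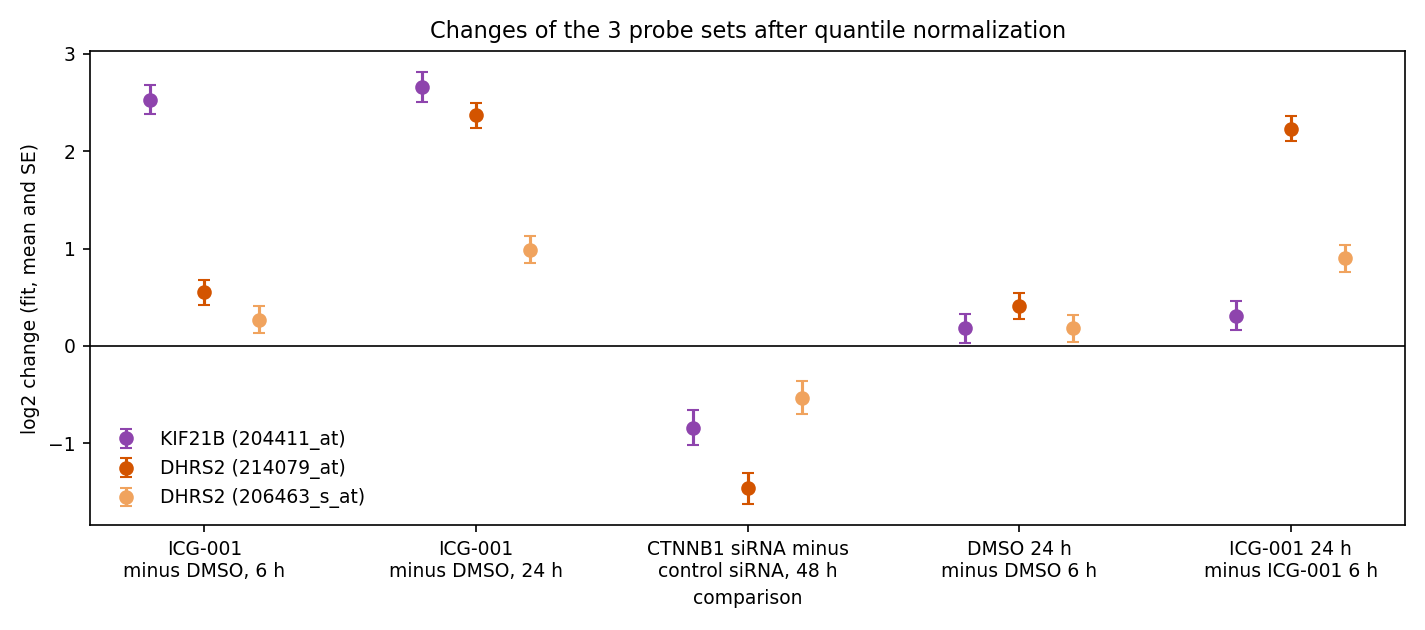
Fitted log2 changes (points, with SE as bars) of KIF21B and the 2 DHRS2 probe sets in the drug, siRNA and time comparisons, the last within DMSO and within ICG-001. KIF21B changed by 2.53 and 2.66 at 6 and 24 h of ICG-001, and DHRS2 214079_at by 0.55 and 2.37, while all siRNA changes lie below 0.

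DHRS2 was lower after CTNNB1 siRNA on both probe sets. Probe set 214079_at read 8.69 and 12.34 with CTNNB1 siRNA, against 37.23 and 41.12 with control siRNA. The groups did not overlap, as in 20.4% of all genes in the downward direction. The means were 10.5 ± 2.58 with CTNNB1 siRNA and 39.2 ± 2.75 with control siRNA (SD, n = 2 each), a ratio of 0.268, and the fitted change of -1.46 ± 0.16 was the 13th lowest of all genes. It was -1.06 on the deposited scaling (30th lowest), -2.14 when 1 was added in place of 16 (31st) and -0.77 when 64 was added (41st). Probe set 206463_s_at read 22.95 and 30.14 with CTNNB1 siRNA, against 37.88 and 45.43 with control siRNA, without overlap, and its fitted change was -0.53 ± 0.17.

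Over vehicle culture alone neither gene passed the test of its change between 24 h and 6 h. For DHRS2 the fitted size, 0.41, was not far below its 6 h drug change of 0.55. DHRS2 214079_at had 73.3, 99.16 and 113.91 in DMSO at 24 h, against 62.11, 68.38 and 63.3 in DMSO at 6 h. All 3 later arrays were above all 3 earlier ones, as in 11.6% of all genes in the upward direction. The change was 0.41 ± 0.13 (limma, adjusted p = 0.0702, against 4.69% of all genes that rose). It did pass on the deposited scaling (0.45, adjusted p = 0.0258), with the arrays centred on their medians (0.44, adjusted p = 0.0496), with the drug arrays fitted alone (0.41, adjusted p = 0.0464) and, at 0.57 with an adjusted p of 0.0067, when DMSO 24 h replicate 1 was left out, while probe set 206463_s_at gave 0.18 ± 0.14 (adjusted p = 0.701). KIF21B had 57.12, 72.68 and 72.72 in DMSO at 24 h, against 45.12, 62.85 and 57.52 in DMSO at 6 h. Those groups overlapped, and the change of 0.18 ± 0.15 did not pass (limma, adjusted p = 0.717).

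In the order of mean deposited intensity, KIF21B was highest with ICG-001 at 24 h, followed by ICG-001 at 6 h, DMSO at 24 h, DMSO at 6 h, control siRNA and CTNNB1 siRNA. Of these neighbours, the 2 DMSO groups overlapped and the others did not. DHRS2 214079_at had the same order, and there the neighbours that overlapped were ICG-001 at 6 h and DMSO at 24 h. For 206463_s_at the order was again the same, and ICG-001 at 6 h overlapped with DMSO at 24 h, DMSO at 24 h with DMSO at 6 h, and DMSO at 6 h with control siRNA, while the other neighbours did not overlap. Of all genes, 19.1% had every ICG-001 array at 24 h above every one at 6 h. For DMSO at 24 h above DMSO at 6 h the share was 11.6%, and for CTNNB1 siRNA below control siRNA 20.4%. No share was counted for the other steps. The steps from the drug experiment to the siRNA experiment also hold the difference between these 2 sets of arrays, whose median intensities were 20.6 to 28.6 for the drug arrays and 12.7 to 13.05 for the siRNA arrays. After quantile normalization KIF21B averaged 6.00 (log2) in control siRNA cells and 6.01 in DMSO cells at 6 h. DHRS2 averaged 6.43 in control siRNA cells and 6.18 in DMSO cells at 6 h on 214079_at, and 6.49 and 5.99 on 206463_s_at. The drop between experiments seen in the intensities was then no longer present, and for DHRS2 the order of these groups turned. This normalization gives all arrays the same distribution, and the source of the drop was not tested.

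Among the other enzymes of the DHRS2 family, 9 of 68 listed short-chain dehydrogenases/reductases were measured. With ICG-001 1 rose and 0 fell at 6 h, with a median of -0.02, and 1 rose and 0 fell at 24 h, with a median of 0.20. Of all genes 5.56% rose and 8.23% fell at 6 h, and 9.22% rose and 11.3% fell at 24 h, so that 1 of 9 is close to the background. On the deposited scaling 2 rose at 6 h and 5 rose at 24 h, and the 24 h median was 0.40. The gene called under both was SDR16C5, an enzyme that oxidises retinol to retinal, with 0.81 ± 0.10 at 6 h (limma, adjusted p = 2.43e-06) and 0.52 ± 0.10 at 24 h (adjusted p = 0.000329). DHRS3, which carries out the reverse reaction, was at -0.12 at 24 h and did not pass, whereas on the deposited scaling it was at 0.42 (adjusted p = 1.53e-05).

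In vehicle culture 4 of the 9 rose and 1 fell at 24 h against 6 h of DMSO, with a median of 0.34, against 4.69% and 3.94% of all genes. The number called, 5, was 2 to 4 when 1 array was left out: 2 without DMSO 6 h replicate 3, and 3 without DMSO 6 h replicate 2 or without DMSO 24 h replicate 1, 2 or 3. HSD17B2, which inactivates estradiol and testosterone, rose by 0.95 ± 0.09 (limma, adjusted p = 2.98e-07) and DHRS3 by 0.82 ± 0.06 (adjusted p = 3.27e-08). The calls of SDR16C5 (0.36 ± 0.10, adjusted p = 0.02) and of the retinal reductase gene RDH11 (-0.52 ± 0.15, adjusted p = 0.0354) were less steady. SDR16C5 did not pass without DMSO 6 h replicate 1 or 3 or DMSO 24 h replicate 1 or 3 (0.29 to 0.37), and RDH11 not without DMSO 6 h replicate 2 or 3 or DMSO 24 h replicate 2 or 3 (-0.44 to -0.53). After CTNNB1 siRNA 1 rose and 2 fell, against 6.19% and 5.83% of all genes. The gene that rose was SDR16C5, at 0.46 ± 0.12 (limma, adjusted p = 0.0147), where DHRS2 was lower. It passed on the deposited scaling (0.59, adjusted p = 0.0011) but not with the siRNA arrays fitted alone (adjusted p = 0.129). HSD17B2 fell by 0.62 ± 0.11 on the log2 scale (adjusted p = 0.000497). HSD17B12, an enzyme of fatty acid elongation, fell by 1.01 ± 0.27 on that scale (adjusted p = 0.0178), which did not pass on the deposited scaling (-0.69, adjusted p = 0.123), with the siRNA arrays fitted alone (adjusted p = 0.262), without control siRNA replicate 1 (-0.74, adjusted p = 0.14) or without CTNNB1 siRNA replicate 2 (-0.71, adjusted p = 0.165). DHRS4, a close relative of DHRS2 that lies next to it on the chromosome, was not among the genes measured.

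**Figure D3:**
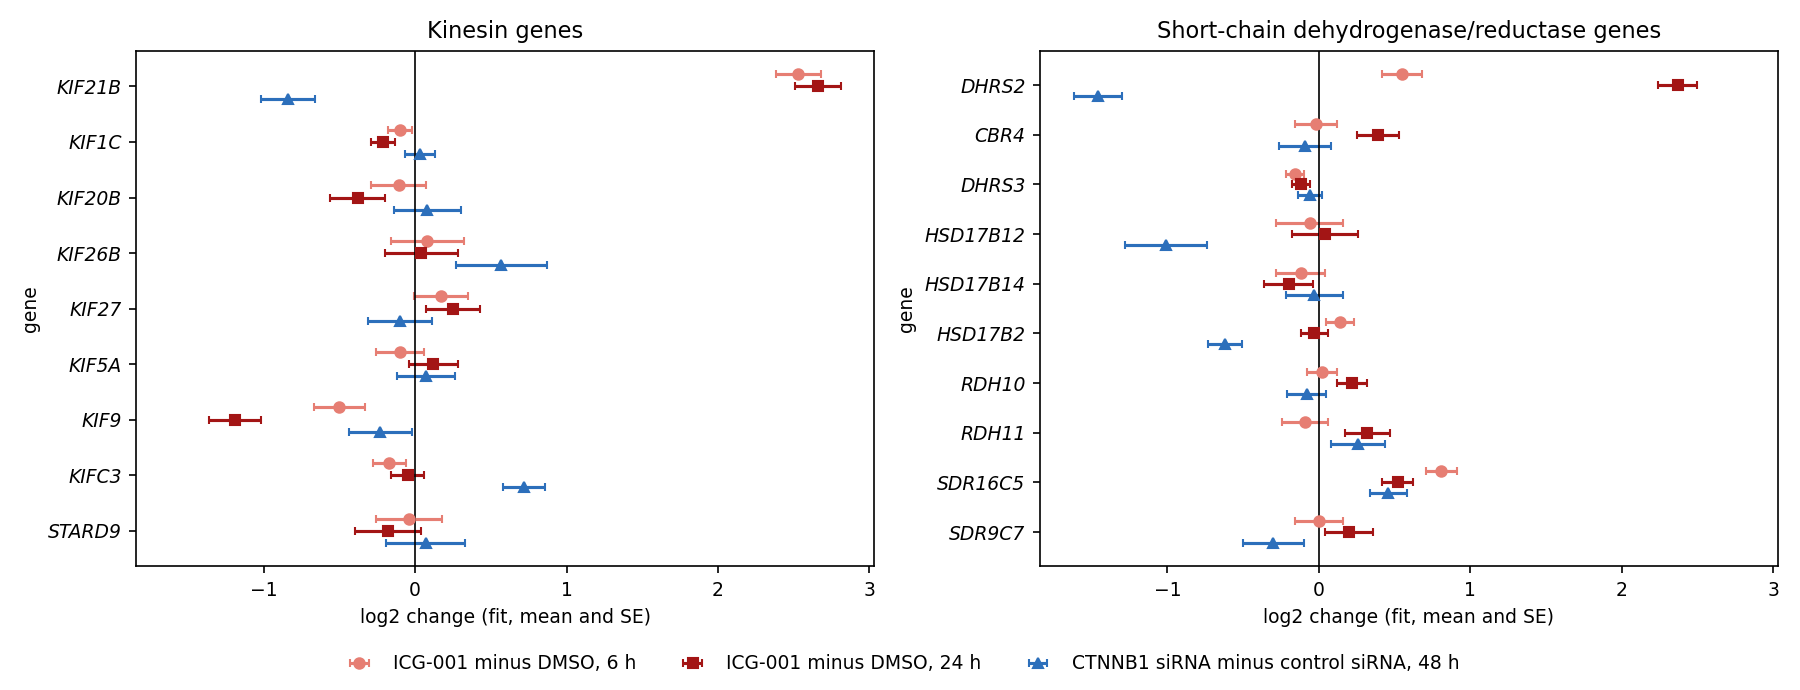
Fitted log2 changes (points, with SE as bars) of the measured kinesin genes (left) and short-chain dehydrogenase/reductase genes (right) with ICG-001 at 6 h and 24 h and with CTNNB1 siRNA. KIF21B (2.53 and 2.66) and DHRS2 (2.37 at 24 h) lie to the right of the other measured members. Both were chosen for high values with ICG-001, so this position follows from the choice. DHRS2 at 6 h (0.55) lies to the left of SDR16C5 at 6 h (0.81), which is at 0.52 at 24 h.

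Genes of the microtubules on which KIF21B walks moved in both directions. Of 15 measured of 40 listed, 1 rose and 4 fell at 6 h of ICG-001 (median -0.14) and 1 rose and 5 fell at 24 h (median 0.07), against 5.56% risen and 8.23% fallen of all genes at 6 h and 9.22% and 11.3% at 24 h. On the deposited scaling the counts were 1 and 0 at 6 h and 2 and 4 at 24 h. The 5 genes called at 6 h became 3 when replicate 2 or 3 of ICG-001 or replicate 1 or 2 of DMSO at 6 h was left out. TUBE1, the epsilon-tubulin of centrioles, rose by 0.98 ± 0.07 at 6 h (limma, adjusted p = 2.33e-09) and by 0.67 ± 0.07 at 24 h (adjusted p = 2.69e-07), or 1.17 at 24 h on the deposited scaling. MAP4, a protein that stabilises microtubules, fell by 0.87 ± 0.11 on the log2 scale at 24 h (adjusted p = 2.6e-06). STMN1, which takes up free tubulin, was at -0.43 ± 0.08 at 6 h (adjusted p = 0.000923), and its direction turned on the deposited scaling (0.06, adjusted p = 0.689) and with median centring (0.05, adjusted p = 0.83). At 24 h it fell by 0.74 ± 0.08 on the log2 scale (adjusted p = 1.22e-06; -0.16 on the deposited scaling, adjusted p = 0.0415). After CTNNB1 siRNA 1 gene of the list rose and 2 fell, against 6.19% and 5.83% of all genes, with STMN1 at -1.18 ± 0.10 (adjusted p = 2.71e-07). The other that fell was TUBE1, which had risen with ICG-001, at -0.33 ± 0.08 (limma, adjusted p = 0.0142). TUBE1 passed on the deposited scaling (-0.27, adjusted p = 0.0172). It did not pass with median centring (-0.27, adjusted p = 0.0835) or with the siRNA arrays fitted alone (adjusted p = 0.076). The gene that rose was DCTN1, a dynactin subunit (0.28 ± 0.08, adjusted p = 0.0231), and it did not pass on the deposited scaling (0.24, adjusted p = 0.0657) or when any 1 of the 4 siRNA arrays was left out. The number called, 3, was 1 without CTNNB1 siRNA replicate 2.

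Neuron markers were read beside KIF21B because the motor is abundant in neurons. SYT1, NEFL and ELAVL4 were measured of 8 listed. The lowest intensity of any probe set was 0.55, so a value above 0 does not show that a gene is expressed. Over all arrays SYT1 read 10.32 to 49.01, NEFL 1.69 to 35.16 and ELAVL4 3.34 to 24.08. Their summed intensity was 66.7 to 75.1 with ICG-001 at 6 h and 47.5 to 62.2 with DMSO at 6 h, and 59.3 to 84 with ICG-001 at 24 h and 43.2 to 52.3 with DMSO at 24 h. None of the 3 passed at either time in the normalized fit (limma, adjusted p over 5250 genes), and 1 passed upwards at 24 h on the deposited scaling. Their part in the KIF21B result was not tested.

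The partners described for DHRS2 did not all move with it. MYB had a mean intensity of 46.4 ± 6.1 with ICG-001 and 106 ± 9.78 with DMSO at 6 h, and of 50.2 ± 5 with ICG-001 and 355 ± 16.5 with DMSO at 24 h (SD, n = 3 each). MYB therefore fell where DHRS2 was higher, with -1.0 ± 0.17 at 6 h (limma, adjusted p = 0.000237; -0.37 and adjusted p = 0.13 with its probe sets averaged) and -2.77 ± 0.17 at 24 h (adjusted p = 2.24e-10). With CTNNB1 siRNA, where DHRS2 was lower, MYB was lower as well, at 51.7 ± 10.8 with CTNNB1 siRNA and 269 ± 132 with control siRNA (SD, n = 2 each), a change of -1.69 ± 0.21 (adjusted p = 1.57e-05). In DMSO it rose by 1.74 ± 0.17 between 24 h and 6 h (adjusted p = 8.04e-07).

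MDM2, which DHRS2 has been described as binding, was at -0.04 at 6 h (limma, adjusted p = 0.926) and -0.23 at 24 h (adjusted p = 0.0587) of ICG-001, and the 24 h change passed with the drug arrays fitted alone (-0.23, adjusted p = 0.0235). After CTNNB1 siRNA it was at -1.01 ± 0.10 (adjusted p = 1.69e-06), but at -0.37 with its probe sets averaged (adjusted p = 0.164). CDKN1A, which encodes the cell cycle inhibitor p21, rose at both times of ICG-001, by 0.86 ± 0.08 at 6 h (adjusted p = 1.85e-07) and 0.74 ± 0.08 at 24 h (adjusted p = 8.1e-07). On the deposited scaling these were 1.41 and 1.21. It also rose with CTNNB1 siRNA, by 0.52 ± 0.10 (adjusted p = 0.00181), where DHRS2 was lower.

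Genes that histone deacetylase inhibitors are known to raise moved in both directions. Of 5 measured of 17 listed besides DHRS2, 2 rose and 1 fell at 6 h of ICG-001 (median 0.11) and 2 rose and 2 fell at 24 h (median 0.00), against 5.56% risen and 8.23% fallen of all genes at 6 h and 9.22% and 11.3% at 24 h. The 2 that rose at both times were CDKN1A and CDKN1C, another cyclin-dependent kinase inhibitor, which changed by 0.41 ± 0.11 at 6 h (limma, adjusted p = 0.0095) and 0.88 ± 0.11 at 24 h (adjusted p = 2.13e-06). The 6 h call ended when replicate 1 of ICG-001 at 6 h was left out (0.34, adjusted p = 0.0686) and when replicate 1 of DMSO at 6 h was (0.34, adjusted p = 0.0702). CLU, the secreted chaperone clusterin, fell by 1.53 ± 0.10 on the log2 scale at 24 h (adjusted p = 3.51e-10). At 6 h it was at -0.50 ± 0.10 (adjusted p = 0.000978), which did not pass on the deposited scaling (-0.23, adjusted p = 0.112). KRT23, a keratin first described as induced by these inhibitors in pancreatic cancer cells, fell by 1.04 ± 0.09 on the log2 scale at 24 h (adjusted p = 1.44e-08) and by 2.32 ± 0.11 with CTNNB1 siRNA (adjusted p = 4.02e-11).

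**Figure D4:**
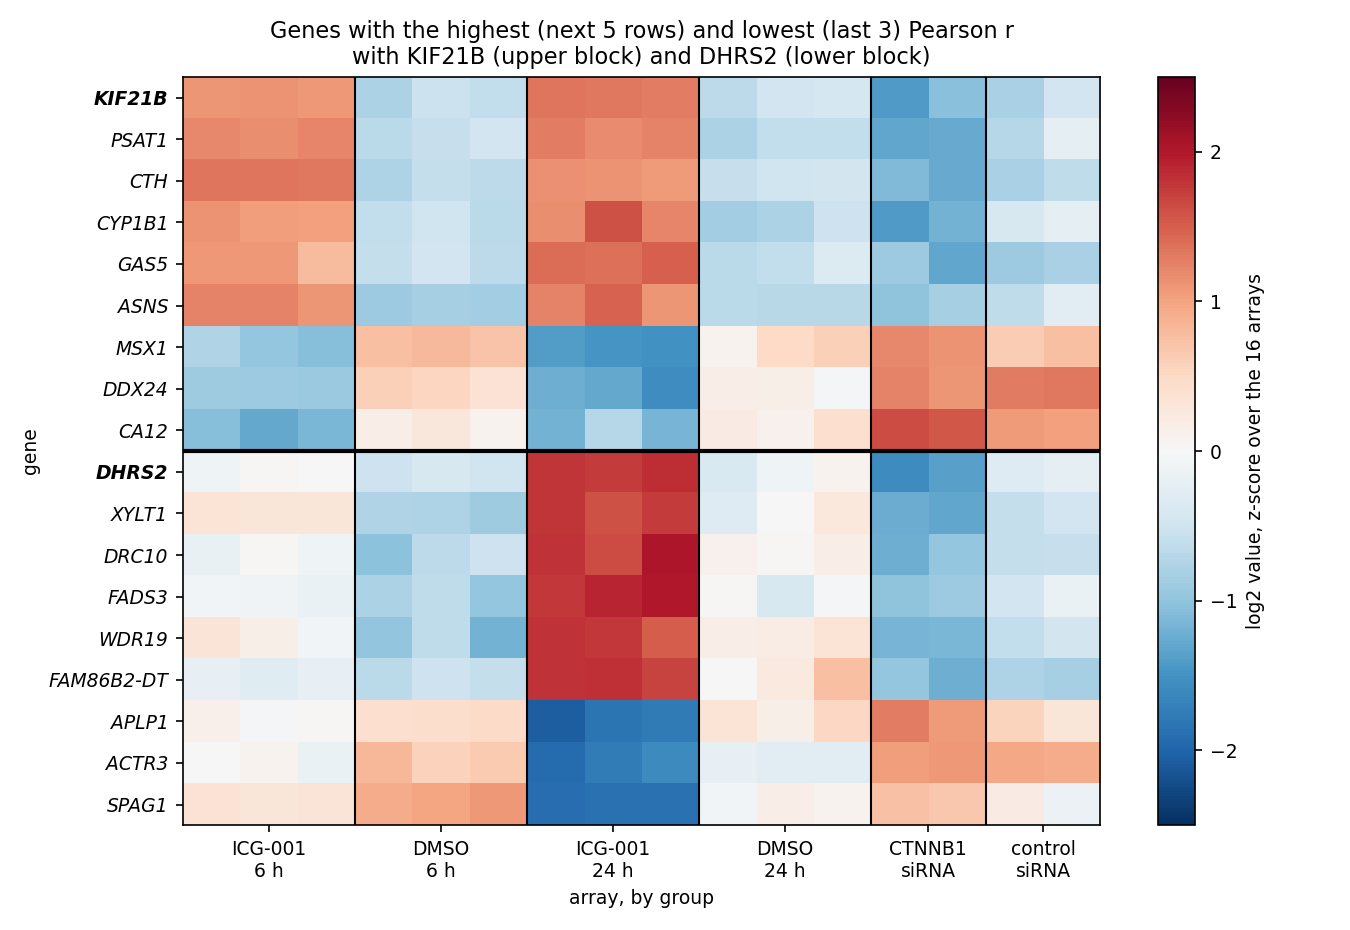
Standardised log2 level over the 16 arrays of KIF21B and DHRS2 and of the genes most and least like each, by group (rows are genes, columns arrays, colour the z-score). In each block the 5 genes under the bold name have the highest correlation with it and the last 3 the lowest. KIF21B and the 5 genes under it are high with ICG-001 at both times, and DHRS2 and the 5 under it at 24 h. The last 3 of each block are low there.

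The 5 genes whose levels followed KIF21B most closely over the 16 arrays were found by Pearson correlation of the normalized log2 levels. They were PSAT1 of serine synthesis (r = 0.991), CTH of cysteine synthesis (0.985), CYP1B1, a cytochrome P450 (0.981), GAS5, a noncoding host of small nucleolar RNAs (0.979), and ASNS, asparagine synthetase (0.978). ASNS changed by 2.75 at 6 h and 2.61 at 24 h of ICG-001 and by -0.62 with CTNNB1 siRNA, and PSAT1 by 1.82, 1.96 and -0.83. The most opposite genes were the homeobox gene MSX1 (-0.973), the RNA helicase gene DDX24 (-0.939) and the carbonic anhydrase gene CA12 (-0.927). These correlations are descriptions without a test, since the 16 arrays fall into 6 groups and 2 experiments and share their normalization. Over the 12 drug arrays alone 1 of the 5 genes closest to KIF21B was shared, ASNS, and the closest was PCK2 (0.997). On the deposited scaling 1 of 5 was shared, CTH.

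DHRS2 followed other genes. The closest were XYLT1, which starts glycosaminoglycan chains (0.965), DRC10, a subunit of the dynein regulatory complex of cilia (0.963), FADS3, a fatty acid desaturase (0.957), WDR19, a subunit of intraflagellar transport (0.938), and the noncoding FAM86B2-DT (0.937). Their changes at 24 h of ICG-001 were smaller than the 2.37 of DHRS2, with XYLT1 at 0.54 at 6 h and 0.84 at 24 h of ICG-001 and FADS3 at 0.42 and 1.24. The most opposed was APLP1, of the amyloid precursor family (-0.977), which changed by -0.44 at 6 h and -2.39 at 24 h, followed by ACTR3, of the actin-nucleating Arp2/3 complex (-0.931), and SPAG1, an assembly factor of ciliary dynein arms (-0.91). Over the 12 drug arrays 0 of the 5 closest genes were shared, and on the deposited scaling 3 of 5. DHRS2 and KIF21B correlated with each other at 0.815 over the 16 arrays and at 0.736 over the 12 drug arrays. Both were chosen for the same pattern on these arrays, so a high correlation follows from the choice.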

How the data were processed

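Per the labels, biotin-labelled total RNA was hybridised to Affymetrix arrays. Each deposited value is the linear intensity of a probe set on an array, between 0.55 and 19346.51, as the authors computed it. How probes were summarised and arrays scaled, and on which genome build, is not given in the sources used here. Every deposited probe set had a coefficient of variation of at least 0.40 over the 16 arrays, so counts refer to this selection. Of 152864 values, 1682 were exactly 1, and precision is limited by the small number of arrays.

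Symbols of 6432 of 6442 single-gene probe sets were updated through gene identifiers, and 252 probe sets with several genes and 2860 with none were left out. log2(intensity + 16) was quantile normalized, since array medians differed by 0.64, above the limit of 0.5 set for keeping the deposited scaling. The probe set with the highest mean stood for each of 5250 genes (936 had more than 1). One model with a term for each of the 6 groups was fitted with limma 3.58.1 in R 4.3.3 (intensity trend, 10 residual and 7.84 prior degrees of freedom, two-sided, Benjamini-Hochberg over 5250 genes, threshold 0.05) after the procedure was tested on simulated data.

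The members and lists were chosen with earlier results of these data known. Of each list, up to 4 called genes with the largest change could be named per comparison, with KIF21A, DHRS4, MYB, MDM2, CDKN1A and KRT23 wherever measured (the rule held other genes that are not reported here), and the 5 most and 3 least correlated genes. The labels call the arrays biological replicates without naming separate cultures, so p-values measure the spread between these arrays. Alternatives were the scaling, the added number, the probe set, the arrays fitted, the trend, a filter on dim genes, a replicate block and each array left out.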

Additional observations from a re-analysis of the deposited data

Results flagged for a closer look

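Of 21 named list genes, 4 had a drug effect at 24 h that differed from that at 6 h by the test of the difference itself (limma interaction contrast, Benjamini-Hochberg over 5250 genes). Most of the 21 had been named for large changes in single comparisons, so their number is not set against the share of all genes. MYB differed by -1.77 ± 0.24 (adjusted p = 6.39e-05), with changes of -2.77 at 24 h and -1.0 at 6 h. CLU differed by -1.04 ± 0.14 (adjusted p = 5.27e-05), with -1.53 at 24 h and -0.50 at 6 h. KRT23 differed by -0.86 ± 0.12 (adjusted p = 8.6e-05), with -1.04 at 24 h and -0.18 at 6 h. MAP4 differed by -0.51 ± 0.15 (adjusted p = 0.0455), with -0.87 at 24 h and -0.36 at 6 h, and this did not pass on the deposited scaling (-0.42, adjusted p = 0.073). All 4 were lower with the drug than with DMSO at 24 h, when DHRS2 was highest. Between drug-treated cells alone, MYB and KRT23 did not pass from 6 h to 24 h (-0.04, limma, adjusted p = 0.937, and 0.07, adjusted p = 0.721). In DMSO these 2 rose by 1.74 and 0.93 over that time. CLU and MAP4 did fall between drug-treated cells, with -0.57 (adjusted p = 0.000195) and -0.53 (adjusted p = 0.00104). No group held 4 or more arrays, so no array was tested for standing apart from its group.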

How the results depend on the processing

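The direction of every drug and siRNA change of DHRS2 and KIF21B was the same under all alternatives run. Sizes moved with the added number (1, then 64, in place of 16): KIF21B changed by 2.87 and 1.89 at 6 h of ICG-001, 2.96 and 2.06 at 24 h, and -1.26 and -0.42 with CTNNB1 siRNA, and DHRS2 by 0.67 and 0.35, 2.58 and 1.9, and -2.14 and -0.77. With quantile normalization within each experiment KIF21B was at 2.52 at 24 h and DHRS2 at -1.08 with CTNNB1 siRNA, a change that was -1.06 on the deposited scaling and -1.06 with median centring. The mean of its probe sets gave DHRS2 0.41, 1.68 and -1, and 206463_s_at alone gave 0.27, 0.99 and -0.53.

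The change of DHRS2 in DMSO over time passed the test in 5 settings: deposited scaling (0.45), median centring (0.44), drug arrays alone (0.41), a replicate block (0.41, adjusted p = 0.0489) and without DMSO 24 h replicate 1. Leaving out 1 array at a time gave 0.28 to 0.57 for DHRS2 (adjusted p 0.0067 to 0.35) and 0.07 to 0.27 for KIF21B (0.494 to 0.932). Deviations from the group mean, in arrays that share a replicate number, correlated at -0.06 to 0.09. With 2 or 3 arrays per group after quantile normalization, this cannot show whether replicate numbers pair the arrays. With the block KIF21B was at 0.18 (limma, adjusted p = 0.523). Genes called with CTNNB1 siRNA numbered 414 with median centring and 289 with the siRNA arrays alone, against 631. STMN1 at 6 h was at 0.06 and 0.05 without quantile normalization. Of 744 values for named genes under alternatives, 67 lost the call, 3 gained it and 2 turned direction, and 41 of 248 list counts moved. The share of called genes that were higher at 24 h was 49.6% with median centring. Values near 16 limit the siRNA changes.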

Other observations

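KIF21B and the DHRS2 probe set 206463_s_at had nearly equal deposited values on each of the 6 DMSO arrays, with a largest difference of 3%. The pairs were 57.12 and 57.11, 72.68 and 70.59, and 72.72 and 72.49 at 24 h, and 45.12 and 44.4, 62.85 and 61.49, and 57.52 and 57.56 at 6 h. Of 9553 other probe sets, 1 stayed within 5% of KIF21B on all 6 arrays, and it was this one. Levels of different probe sets are not comparable, and the values parted on the ICG-001 arrays, where KIF21B was higher by 228% to 529%. They also parted on the siRNA arrays, where it was lower by 28.4% to 58.6%. The pair was picked after its values were seen, and no test was made.

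The array labelled replicate 1 was the lowest of its group for all 3 probe sets in both DMSO groups and in both siRNA groups. In the ICG-001 groups the lowest array differed between probe sets. This too was seen after the values and was not tested.

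Few chromosomal neighbours could be read beside the pair. Among the 5 protein-coding genes on each side in RefSeq, 1 of 10 was measured for DHRS2 and 2 of 10 for KIF21B. CARMIL3 near DHRS2 was at -0.13 at 24 h of ICG-001 (limma, adjusted p = 0.872) and DDX59 near KIF21B at -0.03 (adjusted p = 0.896). CAMSAP2 near KIF21B, which caps the minus ends of microtubules, fell by 0.39 on the log2 scale at 24 h (adjusted p = 0.000569) and was at -0.11 at 6 h (adjusted p = 0.525). The neighbours were looked up after the values were seen.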
